A study of Mus musculus with 32 samples.

Results

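Neat1, Malat1 and 8 protein-coding genes of the splicing machinery were followed in the small intestine of mice that lacked Fabp2, Fabp6 or both. The 10 genes were Neat1, Malat1, Clk1, Clk4, Prpf4b, Srsf11, Son, Zranb2, Luc7l2 and Rbm25. The platform annotation assigned 44 probe sets to them, 34 on the 430A array and 10 on the 430B array, of the 45137 tested, and each of the 44 named a single gene. The arrays named 18194 genes in this way, of which the members are 10. The genes were chosen by measured values of these samples, because they were higher in Fabp6-/- than in WT pools, or because their RNA is known to stay in the nucleus. The difference between Fabp6-/- and WT mice is therefore given only as a description, with no test.

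Neat1 and Malat1 are long non-coding RNAs that are transcribed from neighbouring genes and are retained in the nucleus. Neat1 is the scaffold of paraspeckles, bodies that form beside nuclear speckles, whereas Malat1 gathers in the speckles, where splicing factors are stored. Many splicing factors carry segments rich in serine and arginine (SR proteins), and kinases that phosphorylate these segments release the factors from speckles and steer spliceosome assembly.

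The mice were 10 weeks old, on the C57BL/6J background, littermates, fasted before the whole small intestine was removed, and kept on a standard Purina chow. Fabp2-/- mice lacked, in all cells, the intestinal fatty acid-binding protein that Fabp2 encodes, and Fabp6-/- mice lacked the bile acid-binding protein that ileal enterocytes make from Fabp6. The Fabp2-/-;Fabp6-/- line was bred from these 2 lines, and WT mice carried neither deletion. RNA of 2 mice was pooled, 2 pools stood for each sex in each of the 4 genotypes, and every one of the 16 pools was hybridised to both Affymetrix arrays. All values below are log2 signals, a difference of 1 being a 2-fold change. In bulk tissue, fewer cells of a type and less RNA per cell cannot be told apart.

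Labels and tissue were checked first. Fabp2 read 8.98 to 9.98 in the 8 pools without the gene and 12.58 to 13.05 in the other 8. Of the 8 pools without Fabp6 by label, 7 read 4.80 to 5.04 for that gene, but the eighth read 9.21 (the pool labelled Fabp6-/- female replicate 2), against 10.50 to 11.32 in pools with the gene. Differences between Fabp6-/- and WT pools are given with and without it. Enterocyte markers averaged 12.07 to 12.29 in the 16 pools, while markers of pancreatic acinar cells, which belong to a neighbouring organ, averaged 11.05 to 12.61. For 14 of 16 pools the 430A array resembled the 430B array of the same pool more than that of any other.

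RefSeq (GRCm38.p6) gave promoter windows, from 250 bases before to 50 bases after a transcription start, for 8 of the 10 genes. Those of Malat1, whose probe sets passed the tests below, and of Prpf4b, Srsf11, Zranb2 and Luc7l2, of which at least 1 probe set was higher in every Fabp6-/- pool than in every WT pool, are shown 5′ to 3′, with every match to CCGGAAG (the core bound by ETS factors), CCAAT (a promoter box named for its letters), GGGCGG (GC box) and TGACG (cyclic AMP response element core) on either strand in capitals. No 2 matches overlap in these windows. Srsf11 has 2 windows in the table, of which the one with more matches is shown.
Malat1, chr19:5802623-5802922, minus strand: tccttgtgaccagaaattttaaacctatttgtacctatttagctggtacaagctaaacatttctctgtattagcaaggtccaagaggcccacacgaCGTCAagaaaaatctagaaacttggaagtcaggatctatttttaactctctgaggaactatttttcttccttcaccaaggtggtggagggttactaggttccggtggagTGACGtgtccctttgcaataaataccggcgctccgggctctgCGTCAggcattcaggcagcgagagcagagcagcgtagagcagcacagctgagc
Prpf4b, chr13:34875279-34875578, plus strand: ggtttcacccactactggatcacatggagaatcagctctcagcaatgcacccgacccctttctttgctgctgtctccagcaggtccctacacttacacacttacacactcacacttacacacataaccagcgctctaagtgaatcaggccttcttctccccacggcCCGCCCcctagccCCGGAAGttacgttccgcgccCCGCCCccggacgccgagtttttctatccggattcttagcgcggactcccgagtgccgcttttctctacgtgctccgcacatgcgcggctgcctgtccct
Srsf11, chr3:158036557-158036856, minus strand: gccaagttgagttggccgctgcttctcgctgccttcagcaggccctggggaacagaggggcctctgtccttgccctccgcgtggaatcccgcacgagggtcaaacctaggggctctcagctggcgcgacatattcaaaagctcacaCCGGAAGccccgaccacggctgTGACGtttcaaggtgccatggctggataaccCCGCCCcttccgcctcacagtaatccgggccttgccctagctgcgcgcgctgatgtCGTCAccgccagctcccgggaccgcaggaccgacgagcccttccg
Zranb2, chr3:157533915-157534214, plus strand: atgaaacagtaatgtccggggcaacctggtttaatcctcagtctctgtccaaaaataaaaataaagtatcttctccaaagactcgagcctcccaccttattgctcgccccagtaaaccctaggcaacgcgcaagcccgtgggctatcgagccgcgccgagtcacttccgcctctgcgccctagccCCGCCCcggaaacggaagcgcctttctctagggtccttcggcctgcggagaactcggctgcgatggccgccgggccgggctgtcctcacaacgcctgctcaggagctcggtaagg
Luc7l2, chr6:38555473-38555772, plus strand: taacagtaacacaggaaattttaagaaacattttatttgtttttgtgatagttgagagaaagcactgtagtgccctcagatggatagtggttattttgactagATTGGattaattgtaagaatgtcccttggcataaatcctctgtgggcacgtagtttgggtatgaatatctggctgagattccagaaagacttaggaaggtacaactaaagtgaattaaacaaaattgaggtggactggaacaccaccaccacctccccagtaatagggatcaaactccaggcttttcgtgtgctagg

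The Malat1 window held 3 matches to TGACG, which 20.8% of the 32851 windows of all genes hold, and its GC content was 47.0%. Prpf4b and Srsf11 held CCGGAAG, present in 8.86% of windows, and Prpf4b, Srsf11 and Zranb2 held GGGCGG, present in 35.7%. GC content was 58.3% for Prpf4b, 65.0% for Srsf11 and 59.3% for Zranb2, against a median of 52.7% over all windows. The second Srsf11 window had a GC content of 61.0% and held an ETS core and a GC box too. The Luc7l2 window had a GC content of 39.7%, 1 match to CCAAT, which 37.4% of windows hold, and none to the other 3 motifs marked. This window lies within the gene as placed in GRCm38.p6 (chr6:38551334-38609953), so it does not describe the 5′ end of the gene. The Prpf4b window (gene at chr13:34874820-34906064) and the second Srsf11 window (gene at chr3:158010915-158036667) also lie within their genes. TATAAA (13.6%) and CACGTG (7.15%) were searched too and matched none of the windows shown. In the same assembly 22036 bases separated Malat1 (chr19:5795690-5802672) from Neat1 (chr19:5824708-5845480), and Zranb2 and Srsf11 lay 0.46 Mb apart on chromosome 3. These 2 genes lay 34.63 and 35.11 Mb from Fabp2 on that chromosome, and Clk4 lay 7.66 Mb from Fabp6 on chromosome 11.

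Neat1 was the member with the largest difference between Fabp6-/- and WT pools, and it was not called between mice lacking both genes and mice lacking Fabp2. Probe set 1428083_at (430A) read 10.06 and 10.16 in WT males, 9.92 and 10.06 in WT females, 11.12 and 11.30 in Fabp6-/- males, and 11.14 and 10.95 in Fabp6-/- females. In Fabp2-/- pools it read 10.04 and 10.18 in males and 10.09 and 9.80 in females, and in Fabp2-/-;Fabp6-/- pools 9.79 and 10.11 in males and 9.78 and 9.86 in females. The 4 Fabp6-/- pools stood above all 12 others, and the ranges of the other genotypes overlapped. The Fabp6-/- mean exceeded the WT mean by 1.08 on the log2 scale, or 2.11-fold, and by 1.12 without female replicate 2. That replicate, whose Fabp6 signal went against its label, had the lowest Neat1 value of its genotype but still lay above every pool of the others. The Fabp2-/-;Fabp6-/- mean was 1.24 below the Fabp6-/- mean, a value that was not tested because the Fabp6-/- pools chose the gene.

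Loss of Fabp6 on the Fabp2-null background is the genotype comparison that shares no pool with the one that chose the members. There Neat1 1428083_at differed by -0.14 (SE 0.09, 95% interval -0.33 to 0.04, limma adjusted p = 0.481). Against WT, 1428083_at differed by -0.02 in Fabp2-/- (adjusted p = 0.972) and by -0.17 in Fabp2-/-;Fabp6-/- mice (adjusted p = 0.388). Neat1 has a second probe set, 1442881_at (430B), which did not follow the first. It read 8.36 to 8.53 in the 16 pools and was 0.02 higher in Fabp6-/- than in WT pools (0.03 without female replicate 2), and the correlation between the probe sets was 0.10 over the 16 pools. Probe positions along the transcript were not used here, so which part of Neat1 each probe set reads is not given.

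**Figure D1:**
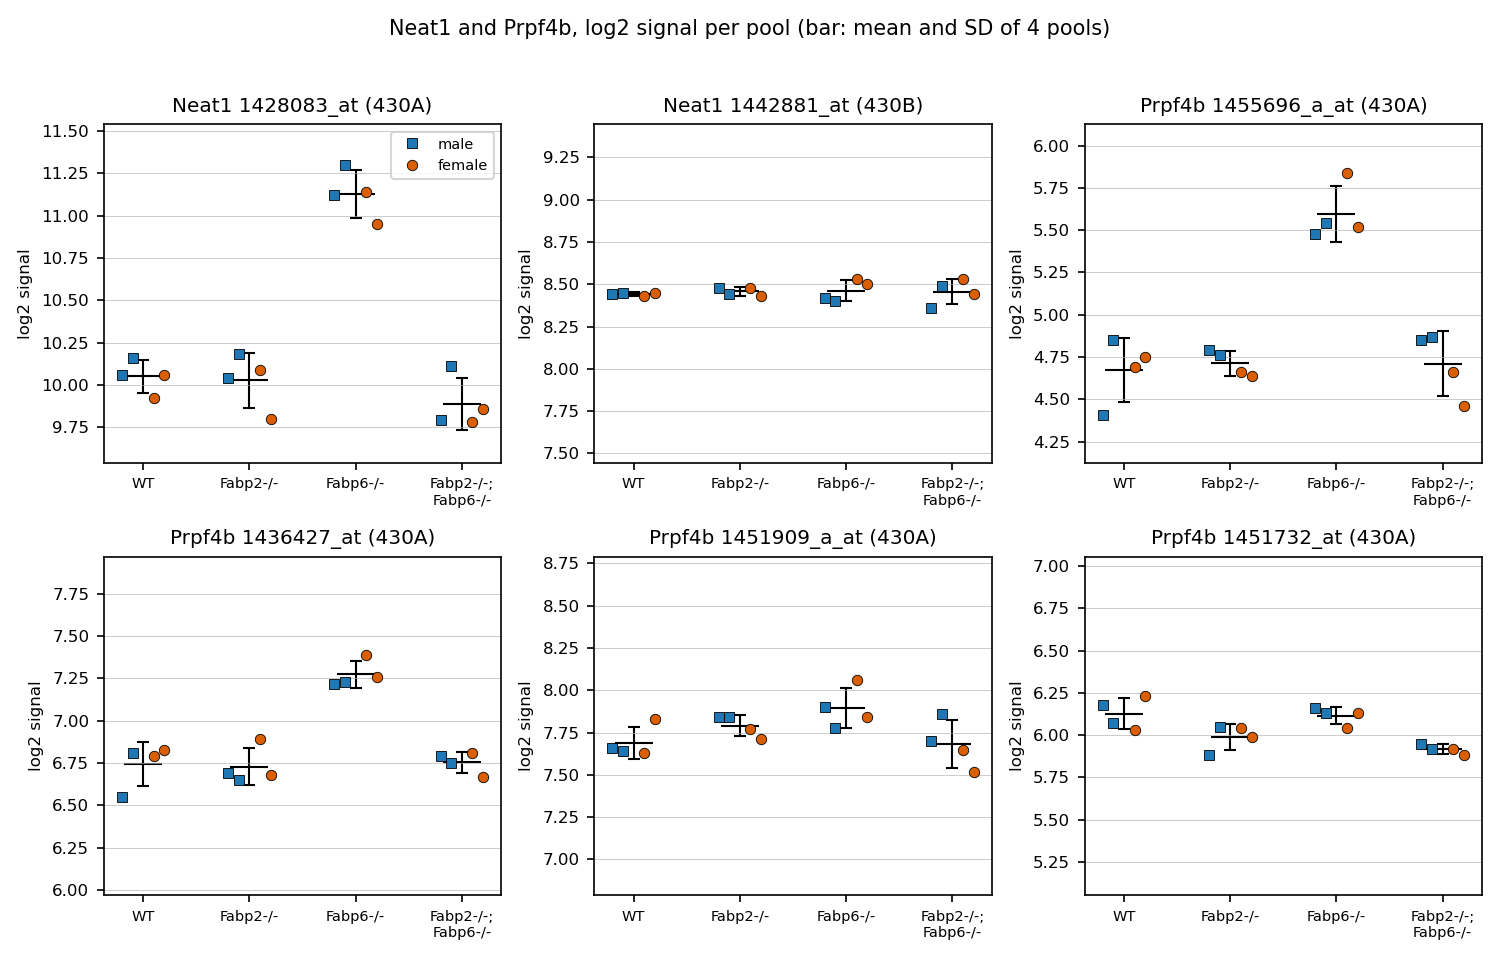
Log2 signal of both Neat1 probe sets and 4 of the 6 Prpf4b probe sets in each pool, by genotype, with squares for males, circles for females, and a bar with whiskers for the mean and SD of 4 pools. Every panel spans 2 log2 units. The 4 Fabp6-/- pools stand apart for Neat1 1428083_at, Prpf4b 1455696_a_at and Prpf4b 1436427_at, but not for Neat1 1442881_at, which stays between 8.36 and 8.53.

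Malat1 was lower in mice lacking Fabp2, alone or with Fabp6, and was close to the WT level in Fabp6-/- pools. Probe set 1418188_a_at (430A) read 9.57 and 9.59 in WT males and 9.76 and 9.68 in WT females. In Fabp2-/- pools it read 8.35 and 8.41 in males and 8.66 and 9.47 in females, and in Fabp2-/-;Fabp6-/- pools 8.72 and 9.12 in males and 8.57 and 9.07 in females. In Fabp6-/- pools it read 9.66 and 9.71 in males and 9.53 and 9.46 in females. All 8 Fabp2-null pools lay below the 4 WT pools, but Fabp2-/- female replicate 2 was close to WT while the other 3 Fabp2-/- pools were the lowest of the series, together with a female pool lacking both genes.

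The mean over both sexes of 1418188_a_at fell by 0.93 in Fabp2-/- mice, to 0.525 of WT (SE 0.14, n = 4 pools each, limma adjusted p = 0.00144), and by 0.78 in Fabp2-/-;Fabp6-/- mice, to 0.582 of WT (SE 0.14, adjusted p = 0.00372). These comparisons share the WT pools with the one that chose the members. A probe set was called when its false discovery rate was under 0.2 and its log2 fold change exceeded 0.5 in size. By this rule 4 of the 44 member probe sets were lower in Fabp2-/- than in WT mice, all of Malat1, against 0.306% of all probe sets. None was higher, against 0.128%. In Fabp2-/-;Fabp6-/- mice 3 were lower, again all of Malat1, against 0.363% of all probe sets, and none was higher, against 0.268%.

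The 7 Malat1 probe sets did not move alike. On 430A, 1438403_s_at fell by 0.93 in Fabp2-/- mice (SE 0.18, adjusted p = 0.0142) and by 0.77 in mice lacking both genes (adjusted p = 0.0296). Probe set 1418189_s_at fell by 0.78 (SE 0.17, adjusted p = 0.0251) and 0.68 (adjusted p = 0.0351), and 1427285_s_at fell by 0.55 in Fabp2-/- mice (SE 0.12, adjusted p = 0.0321). In mice lacking both genes 1427285_s_at differed by -0.43, short of the fold limit (adjusted p = 0.0702). These 3 probe sets overlapped with WT in Fabp2-/- mice through female replicate 2 alone, which read 10.55, 10.36 and 8.17 where the other 3 Fabp2-/- pools read 9.18 to 9.56, 8.95 to 9.29 and 7.43 to 7.53.

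The remaining 3 Malat1 probe sets were not called in either comparison. Probe set 1452378_at (430A) read 6.73, 6.88, 6.91 and 7.26 in the Fabp2-/- pools, 7.17 to 7.36 in WT pools and 7.28 to 7.33 in pools lacking both genes, so that it was low in Fabp2-/- pools without being low in the double mutant. Between these 2 Fabp2-null genotypes it differed by 0.36 (SE 0.08, adjusted p = 0.0115), under the fold limit, with no overlap of the pools. On 430B, 1429060_at differed from WT by -0.29 in Fabp2-/- mice (adjusted p = 0.0952) and by -0.07 in mice lacking both genes. It read 8.66 to 8.87 in Fabp2-/- pools, with 8.78 in female replicate 2, and 8.95 to 9.40 in WT pools. Probe set 1436202_at showed the reverse order, -0.04 in Fabp2-/- mice and -0.29 in mice lacking both genes (adjusted p = 0.0057). Over the 16 pools the 4 probe sets that fell in Fabp2-/- mice correlated at 0.87 to 0.97 with each other, while 1436202_at correlated at -0.02 to 0.42 with the other 6 Malat1 probe sets.

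**Figure D2:**
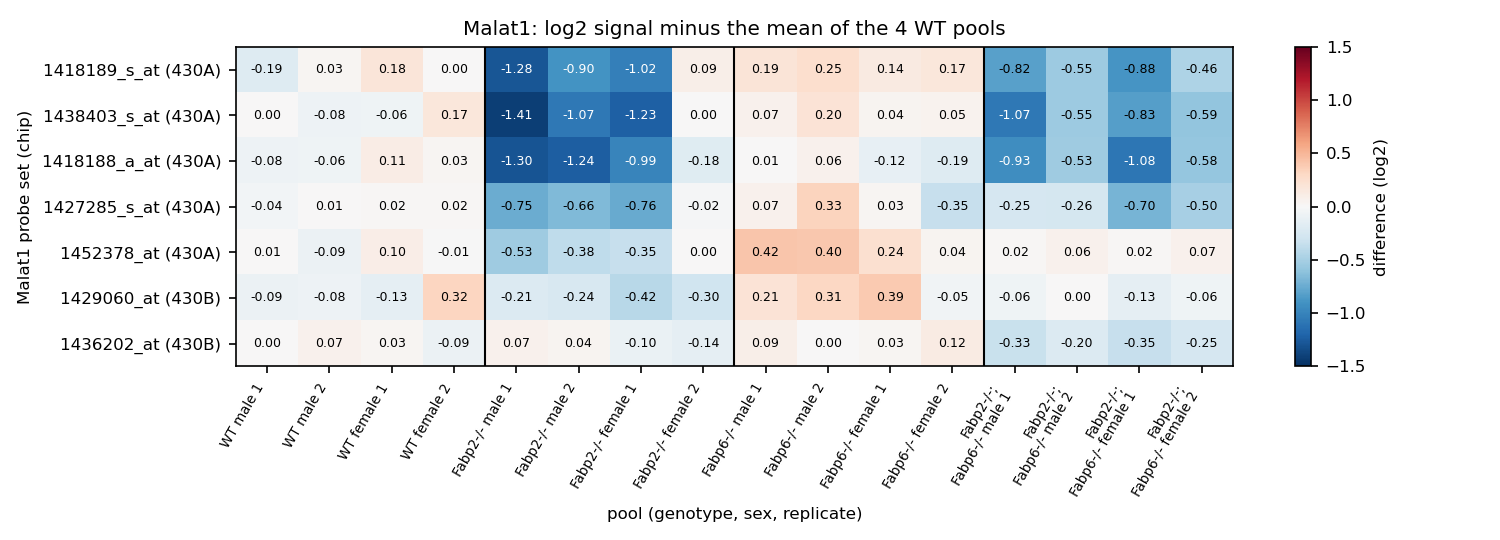
Malat1 log2 signal minus the mean of the 4 WT pools, with 1 row for each of the 7 probe sets and 1 column for each pool, ordered by genotype, blue where lower and red where higher. The upper 4 rows are blue in the Fabp2-/- pools, except female replicate 2, and in the pools lacking both genes, and the lower 3 rows are paler.

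In males alone, 4 Malat1 probe sets were lower in Fabp2-/- than in WT mice, against 0.261% of all probe sets, led by 1418188_a_at at -1.21 (SE 0.19, adjusted p = 0.00909). In females no member was called, against 0.472%, with 10 of 44 at an unadjusted limma p under 0.05, against 11.1% of all probe sets. Probe set 1418188_a_at differed by -0.65 in females (adjusted p = 0.289). It differed by -0.25 without Fabp2-/- female replicate 1 (adjusted p = 0.678) and by -1.06 without Fabp2-/- female replicate 2 (adjusted p = 0.0115), where the pool left in the group is assumed to vary like the other groups. In mice lacking both genes 2 Malat1 probe sets were called lower in males, against 0.441% of all probe sets, and 2 in females, against 0.448%. There 1418188_a_at fell by 0.66 in males (adjusted p = 0.115) and by 0.90 in females (adjusted p = 0.0491). With 2 pools a group these calls rested on single pools. The call in males was lost without WT male replicate 1 (adjusted p = 0.515), WT male replicate 2 (0.275) or Fabp2-/-;Fabp6-/- male replicate 1 (0.706), and that in females without WT female replicate 1 (0.270) or Fabp2-/-;Fabp6-/- female replicate 1 (0.315). The difference between the sexes in the effect was not called for any member in any of the 3 comparisons. Few probe sets of any kind were, at 0.00886% between the Fabp2-null genotypes, 0.0266% in Fabp2-/- mice and 0.00443% in mice lacking both genes against WT. At an unadjusted p under 0.05 there were 4, 5 and 4 of 44 in the same order, against 4.70%, 5.65% and 6.58% of all probe sets.

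Other measures also differed between the genotypes, but not all in the pattern of Malat1. Markers of T cells and intraepithelial lymphocytes (13 probe sets of 8 genes, none under a log2 signal of 6 in every pool) averaged 7.02 to 7.27 in Fabp2-null pools and 7.30 to 7.66 in the others, with 1 called lower in Fabp2-/- and 4 in Fabp2-/-;Fabp6-/- mice against WT. Markers of the proximal small intestine (18 probe sets, 3 of them under 6 in every pool) averaged 8.53 to 8.70 in WT, 8.46 to 8.53 in Fabp2-/- and 8.53 to 8.64 in Fabp2-/-;Fabp6-/- pools, with 1 called lower in each mutant. Markers of B and plasma cells (21 probe sets, 4 under 6 in every pool) averaged 7.39 to 7.47 in Fabp2-/-;Fabp6-/- pools, with 5 called lower than in WT. They averaged 7.75 to 7.93 in WT pools and 7.59 to 8.27 in Fabp2-/- pools, which overlapped. Markers of macrophages and dendritic cells (17 probe sets, 1 under 6 in every pool) averaged 7.86 to 7.99 in Fabp2-/-;Fabp6-/- pools, with 4 called lower than in WT. They averaged 8.41 to 8.47 in WT pools and 8.14 to 8.78 in Fabp2-/- pools, which overlapped. Markers of gastric epithelium (11 probe sets) averaged 9.24 to 9.70 in mice lacking both genes and 8.26 to 9.18 in WT pools, with 6 called higher. They averaged 8.62 to 9.26 in Fabp2-/- pools and 9.15 to 9.49 in Fabp6-/- pools. Fabp2-/- female replicate 2, whose Malat1 signal was close to WT on 430A but not for 1429060_at on 430B, stood at 7.11 for the markers of T cells and intraepithelial lymphocytes, at the low level of its genotype. The log2 difference between the 3′ and 5′ control probe sets of beta-actin on 430A is a measure of RNA integrity. It was -0.29 to -0.19 in WT pools and -0.20 to -0.11 in Fabp2-/- pools. In Fabp6-/- pools it was -0.18 to -0.04, and in Fabp2-/-;Fabp6-/- pools -0.08 to -0.03. The Fabp2-/- value nearest WT, -0.20, was that of female replicate 2. For Gapdh on 430A the same difference overlapped between genotypes. It was -0.14 to 0.01 in WT and -0.10 to 0.00 in Fabp2-/- pools. It was -0.05 to 0.02 in Fabp6-/- and -0.07 to 0.05 in Fabp2-/-;Fabp6-/- pools. Across pools, the correlation with Malat1 1418189_s_at was -0.36 for beta-actin and -0.07 for Gapdh on 430A. On 430B it was -0.02 for beta-actin and 0.24 for Gapdh. With Neat1 1428083_at it was 0.08 for beta-actin and 0.30 for Gapdh on 430A, and 0.54 and 0.60 on 430B. The beta-actin difference on 430B was 0.03 to 0.10 in WT and 0.08 to 0.15 in Fabp2-/- pools. In Fabp6-/- pools it was 0.17 to 0.23, and in Fabp2-/-;Fabp6-/- pools 0.15 to 0.20. The Gapdh difference there was -0.26 to -0.20, -0.27 to -0.19, -0.19 to -0.14 and -0.28 to -0.16 in the same order. Malat1 1418188_a_at differed from WT by -0.06 in Fabp6-/- pools (-0.04 without female replicate 2). The part of these measures in the Malat1 and Neat1 values was not tested, and nothing is read from the values of single pools.

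Among the kinases, Prpf4b differed most in Fabp6-/- pools, and only for some of its probe sets. Prpf4b encodes a kinase that acts on the U4/U6.U5 particle before the spliceosome is activated. Probe set 1455696_a_at read 4.41 to 4.85 in WT pools, 4.64 to 4.79 in Fabp2-/- pools, 5.48 to 5.84 in Fabp6-/- pools and 4.46 to 4.87 in pools lacking both genes. Probe set 1436427_at read 6.55 to 6.83, 6.65 to 6.89, 7.22 to 7.39 and 6.67 to 6.81 in the same order. For both, every Fabp6-/- pool stood above all 12 others, whose genotypes overlapped. The Fabp6-/- means were 0.92 and 0.53 above WT, and 1.0 and 0.56 above it without female replicate 2. Probe set 1455696_a_at stayed under 6 in every pool, so that a low-signal filter removed it. The other 4 Prpf4b probe sets were between -0.01 and 0.21 of WT (-0.03 and 0.26 without female replicate 2), among them the brightest, 1451909_a_at. On the Fabp2-null background, loss of Fabp6 gave 0.00 for 1455696_a_at (SE 0.09, 95% interval -0.19 to 0.19) and 0.03 for 1436427_at (SE 0.07, interval -0.12 to 0.18), with adjusted p of 0.998 and 0.920. Over the 16 pools these 2 probe sets correlated at 0.95, and the 15 pairs of Prpf4b probe sets at -0.02 to 0.95 with a median of 0.50.

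Clk1 and Clk4 encode kinases that phosphorylate SR proteins in the nucleus. Clk1 1426124_a_at read 7.86 to 8.30 in WT pools, 8.11 to 8.53 in Fabp6-/- pools and 8.05 to 8.15 in pools lacking both genes. In Fabp2-/- pools it read 8.09, 7.89, 7.94 and, in female replicate 2, 7.32, which was the lowest Clk1 value of the series. The Fabp6-/- mean was 0.22 above WT (0.28 without female replicate 2), with overlapping pools. Between the double mutant and Fabp2-/- mice Clk1 differed by 0.27 (SE 0.13, 95% interval 0.01 to 0.54, adjusted p = 0.308). Clk4 1422886_a_at was 0.21 above WT in Fabp6-/- pools and 1427663_a_at 0.02 (0.28 and 0.07 without female replicate 2), and both overlapped with WT. Clk1 and Clk4 1422886_a_at correlated at 0.80 over the 16 pools, and at 0.70 over the 12 pools other than Fabp6-/-.

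Of the SR-related factors, 2 of the 4 Srsf11 probe sets and the Zranb2 probe set were higher in every Fabp6-/- pool than in every WT pool, and no Son probe set was. Srsf11 encodes an SR-related protein. Its probe set 1452371_at read 8.55 to 8.81 in WT pools, 8.59 to 8.78 in Fabp2-/- pools, 8.90 to 9.14 in Fabp6-/- pools and 8.63 to 8.83 in pools lacking both genes. The Fabp6-/- mean was 0.37 above WT for this probe set and for 1427269_at (0.43 and 0.40 without female replicate 2). It was 0.29 above WT for 1439095_at (0.32 without that replicate), whose pools overlapped, and 0.18 below WT for 1430077_at (0.13 below without it), which stayed under 6 in every pool. Zranb2, a zinc finger protein with an SR-like tail, has a single probe set, 1454652_at, at 7.10 to 7.41 in WT and 7.44 to 7.93 in Fabp6-/- pools, a difference of 0.35 (0.40 without female replicate 2). Neither was called between the double mutant and Fabp2-/- mice, at -0.02 (SE 0.07) for Srsf11 1452371_at and -0.08 (SE 0.07) for Zranb2, with adjusted p of 0.956 and 0.695.

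Son, a large scaffold protein of nuclear speckles, went the other way for its brightest probe set. Son 1420952_at read 8.81 to 9.33 in WT pools, 8.68 to 8.95 in Fabp2-/- pools, 8.60 to 8.72 in Fabp6-/- pools and 8.50 to 8.68 in pools lacking both genes. The Fabp6-/- mean was 0.29 below WT (0.30 below without female replicate 2). The double mutant differed from WT by -0.34 (SE 0.09, adjusted p = 0.0433), under the fold limit, with no overlap. WT female replicate 1 held the highest value, 9.33, and the other 3 WT pools read 8.81 to 8.84. The other 6 Son probe sets lay between -0.27 and 0.21 of WT in Fabp6-/- pools, and between -0.20 and 0.25 without female replicate 2.

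Luc7l2, a relative of a yeast protein of the U1 particle, and Rbm25, a U1-associated RNA-binding protein, also differed by probe set. Luc7l2 1423251_at read 7.64 to 7.83 in WT and 8.09 to 8.23 in Fabp6-/- pools, a difference of 0.42, and 1427087_at was 0.46 above WT, or 0.46 and 0.60 without female replicate 2. The other 6 Luc7l2 probe sets lay between -0.16 and 0.18 of WT, or -0.20 and 0.29 without that replicate. All 6 Rbm25 probe sets lay between -0.01 and 0.15, or -0.04 and 0.28 without it, and none was called in any tested comparison. Rbm25 1437862_at (430B) differed from WT by -0.24 in the double mutant (SE 0.06, adjusted p = 0.0231), under the fold limit, with no overlap of the pools.

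**Figure D3:**
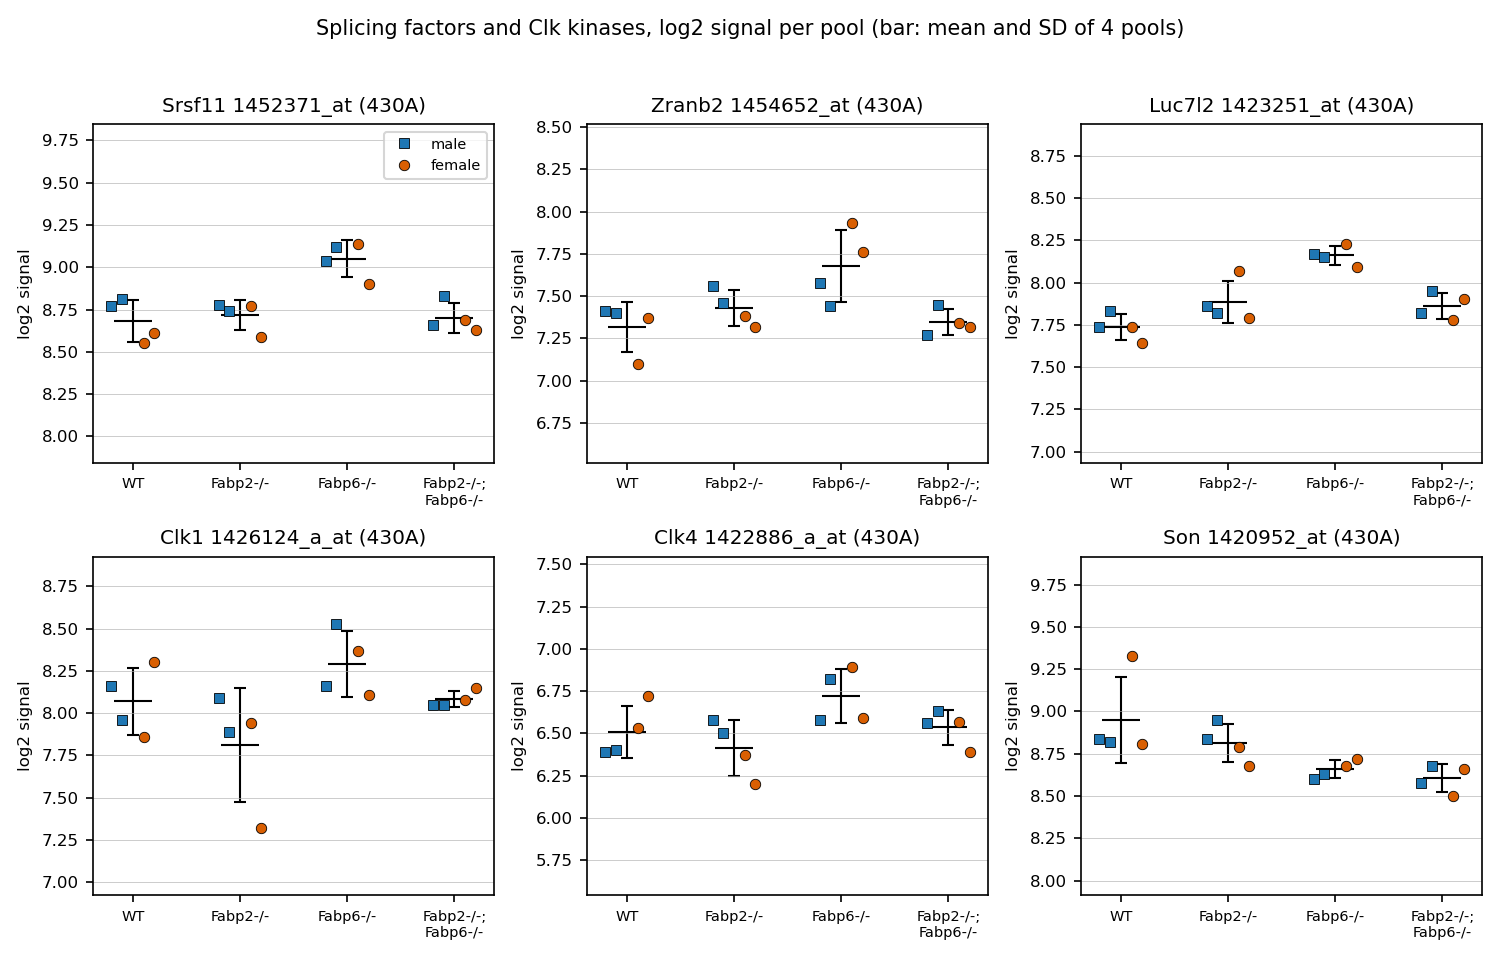
Log2 signal of the brightest 430A probe set of Srsf11, Zranb2, Luc7l2, Clk1, Clk4 and Son in each pool, by genotype, with squares for males, circles for females, and a bar with whiskers for the mean and SD of 4 pools. Every panel spans 2 log2 units. The Fabp6-/- pools lie above the WT pools for Srsf11, Zranb2 and Luc7l2, overlap with them for Clk1 and Clk4, and lie below them for Son 1420952_at.

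Over all members, 33 of the 44 probe sets had a higher mean in Fabp6-/- than in WT pools, with a median difference of 0.11, and 35 did without Fabp6-/- female replicate 2, with a median of 0.17. The 4 Fabp6-/- pools were all above the 4 WT pools for 9 probe sets, against 2.98% of all probe sets, and the other 3 were for 13 when that replicate was left out, against 5.42%. The difference was over 0.5 for 3, Neat1 1428083_at and 2 of Prpf4b, against 0.166% of all probe sets, and for 4 without that replicate, Luc7l2 1427087_at being the fourth, against 0.323%. Because this comparison chose the genes, nothing is read from these counts. Of the 44, 36 had a signal over 6 in at least 2 pools, and 8 stayed under 6 in every pool.

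On the Fabp2-null background none of the 44 member probe sets was called between mice lacking both genes and Fabp2-/- mice, against 0.647% of all probe sets. The count was also 0 when each pool was left out in turn, and 6 of 44 had an unadjusted limma p under 0.05, against 12.6% of all probe sets. The median difference was -0.01, against 0.00 over all probe sets, with 20 positive and 24 negative, and the range was -0.25 to 0.36. Pools of the 2 genotypes did not overlap for 3 members, all of Malat1, against 7.12% of all probe sets. Against WT, pools did not overlap for 3 members in Fabp2-/- mice, against 6.45%, and for 9 in Fabp2-/-;Fabp6-/- mice, against 10.1%.

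**Figure D4:**
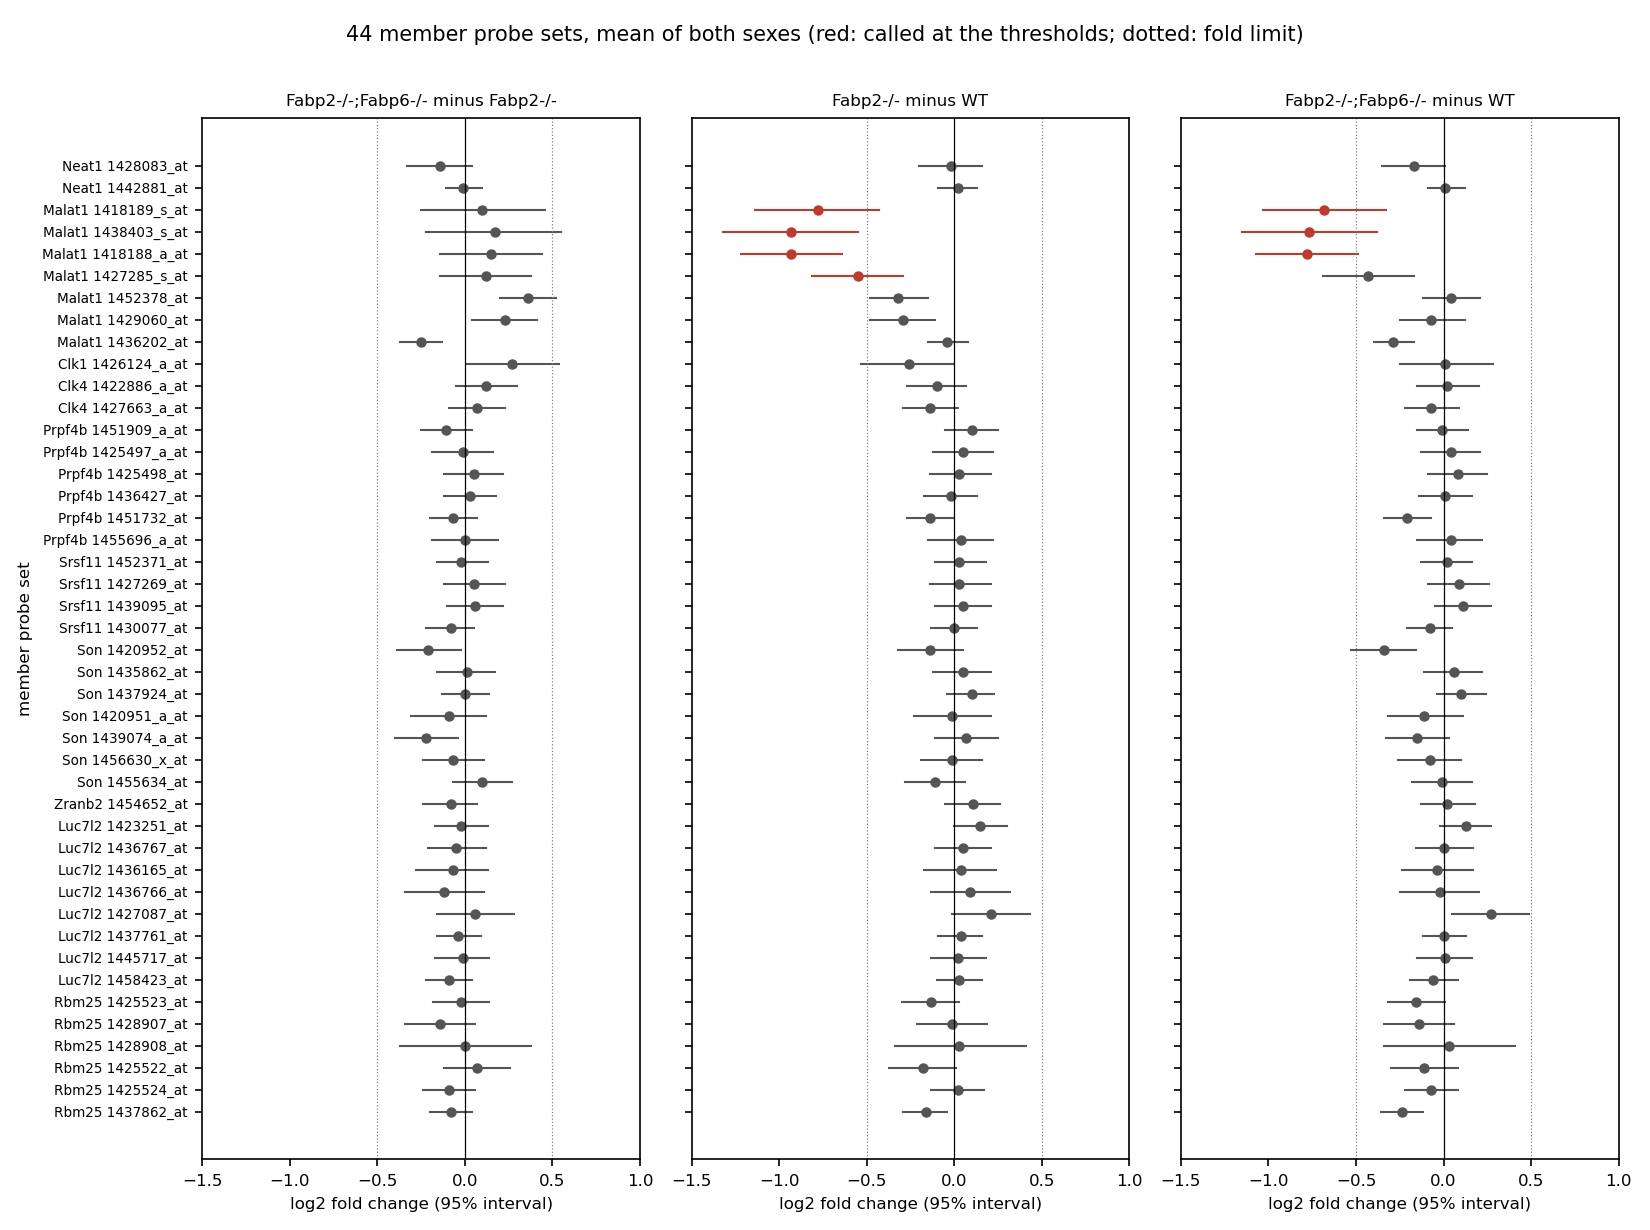
Log2 fold change with its 95% interval for the 44 member probe sets, averaged over both sexes, in the 3 tested genotype comparisons, with called probe sets in red and the fold limit of 0.5 dotted. All the called probe sets are of Malat1, 4 in Fabp2-/- and 3 in Fabp2-/-;Fabp6-/- mice against WT, and none is called between the Fabp2-null genotypes.

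No member was called between the sexes. Averaged over the 4 genotypes, females minus males ranged from -0.17 to 0.19 and 0 of 44 probe sets were called, against 0.109% of all probe sets, with 2 at an unadjusted limma p under 0.05, against 10.1% of all probe sets. These were Neat1 1428083_at, at -0.14 (SE 0.06, adjusted p = 0.413), and Srsf11 1452371_at, at -0.11 (SE 0.05, adjusted p = 0.456). Xist, the long non-coding RNA that coats the inactive X chromosome, was 4.57 higher in females for 1427262_at (SE 0.09, adjusted p = 2.69e-16).

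Members also varied with each other across pools. Using the brightest probe set of each gene, Neat1 correlated at 0.92 with Srsf11, 0.72 with Zranb2, 0.66 with Prpf4b and 0.55 with Malat1 over the 16 pools. Without the 4 Fabp6-/- pools these became 0.67, 0.57, 0.54 and -0.06. The other Neat1 pairs ran from -0.22 (Son) to 0.64 (Clk4) over the 16 pools, and from 0.18 (Clk4) to 0.75 (Luc7l2) over the 12. Over those 12 pools Malat1 also correlated at -0.47 with Srsf11 and -0.54 with Zranb2. These values describe pools that share genotype, array and normalisation, and carry no test. Genes chosen for being higher in Fabp6-/- pools correlate over the 16 pools in part through that choice.

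The genes most like Neat1 1428083_at over the 16 pools, of 691 genes compared, were Ogt and Nktr (both r = 0.92, Nktr for 1423248_at), Gas5 and Mbd6 (both 0.91) and Ddx17 (0.90). Ogt, which adds N-acetylglucosamine to nuclear proteins, read 8.50 to 8.74 in Fabp6-/- pools and 7.96 to 8.35 in the others. Ddx17, an RNA helicase, read 8.50 to 8.83 in Fabp6-/- pools and 7.90 to 8.37 in the others. For Malat1 1418189_s_at they were Akap9 (0.92), Smc6 (0.89), Wnk1 (0.88), Lpgat1 (0.87) and Ercc8 (0.84). Ercc8, which acts in transcription-coupled DNA repair, averaged 8.47 in WT pools, 7.57 in Fabp2-/- pools, 8.44 in Fabp6-/- pools and 7.58 in pools lacking both genes. For Prpf4b 1451909_a_at they were Clca3a1 (0.82), Plagl1, Gm6958 and Ddx17 (each 0.78) and Ogt (0.75).

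Other genes were followed in 12 lists with 700 probe sets. The lists held nuclear-retained RNAs, paraspeckle, speckle and splicing proteins and RNA export factors, and also immediate early genes, heat shock genes and p53 targets. Their probe sets were called at 0.143% between the double mutant and Fabp2-/- mice (0.647% of all probe sets), 0.286% in Fabp2-/- mice against WT (0.434% of all) and 0.714% in the double mutant against WT (0.631% of all). Between the double mutant and Fabp2-/- mice none rose and 1 fell, Nktr 1437660_at, an SR-rich cyclophilin (-0.55, SE 0.08, adjusted p = 0.000665). Its pools read 6.41 to 6.78 without both genes and 7.07 to 7.30 without Fabp2. The Nktr probe set that correlated with Neat1 was another, 1423248_at (430A), which was not called in these comparisons. It averaged 7.80 in WT, 7.91 in Fabp2-/- and 7.73 in Fabp2-/-;Fabp6-/- pools. Against WT, Fabp2-/- mice had 1 probe set higher, Taf15 1438130_at, a paraspeckle protein (0.74, SE 0.13, adjusted p = 0.00428), and 1 lower, Tra2a 1442886_at, an SR-like splicing regulator (-0.56, SE 0.07, adjusted p = 0.000133). In mice lacking both genes 2 were higher, Taf15 again (0.52) and Cirbp 1416332_at, a cold-inducible RNA-binding protein (0.59, SE 0.12, adjusted p = 0.00799), and 3 were lower, Nktr (-0.68), Tra2a (-0.54) and Hsph1 1423566_a_at, a heat shock protein (-0.53, SE 0.07, adjusted p = 0.000214). Some of these signals were low. Taf15 read 4.36 to 5.12 in WT, 5.34 to 5.90 in Fabp2-/- and 4.88 to 5.66 in Fabp2-/-;Fabp6-/- pools, all under 6. Hsph1 read 5.10 to 5.33 in WT and 4.57 to 4.78 in Fabp2-/-;Fabp6-/- pools. Tra2a read 5.64 to 6.06 in WT and 5.17 to 5.47 in Fabp2-/- pools. No probe set was called for the 9 SR proteins (29 probe sets), the 18 SR protein kinases and phosphatases (53) or the 19 hnRNP proteins (58) in these 3 comparisons. List medians lay between -0.07 and 0.04, against 0.00 over all probe sets.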

How the data were processed

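Total RNA of the small intestine was measured on Affymetrix 430A and 430B arrays, 16 pools on each. The deposited values are log2 signals, obtained by the authors from raw intensities through background correction, quantile normalization and summarization with RMA, for each chip on its own, and no version is given in the sources used here. RMA takes out array-wide shifts, so a change shared by most genes would not be seen, and precision is limited by how many arrays there are. The series value tables held the same numbers and were not used. The platform annotation named the genes.

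For each chip, limma 3.58.1 in R 4.3.3 estimated 1 mean for each of the 8 groups over all probe sets except control probe sets (lmFit and eBayes, two-sided, 8 residual degrees of freedom), with Benjamini-Hochberg adjustment per chip and comparison. A probe set was called when its false discovery rate was under 0.2 and its log2 fold change exceeded 0.5 in size, as in the methods. The script was tested on simulated data for the comparison of Fabp2-/-;Fabp6-/- with Fabp2-/- mice, over 22626 probe sets of 430A and 22511 of 430B. It called 98 and 100 of 100 probe sets changed by 0.75, all 100 changed by 1.5 on each chip, and 1 and 0 unchanged ones.

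The members, gene lists and tests were chosen with earlier results of these data known. The text gives all member probe sets, by name or within a range, and names Fabp2 and Fabp6, up to 3 called probe sets per list and comparison, and the 5 genes most correlated with the brightest probe set of Neat1, Malat1 and Prpf4b (1 gene per probe set, interquartile range of at least 0.3). Pools are separate samples of 2 mice each, and replicate numbers were not taken to pair them. Alternatives were 1 probe set per gene and chip (by interquartile range or mean signal), a low-signal filter, only the groups compared, adjustment over both chips, an intensity-trend robust prior, cyclic loess, a replicate block, a false discovery rate under 0.05, no fold limit, and leaving out each pool.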

Additional observations from a re-analysis of the deposited data

How the results depend on the processing

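No result changed direction under any alternative. Without a fold limit, 3 of the 44 member probe sets were called between Fabp2-/-;Fabp6-/- and Fabp2-/- mice (0 with it; 6.24% of all probe sets), 7 between Fabp2-/- and WT (4 with it; 6.04% of all) and 8 between Fabp2-/-;Fabp6-/- and WT (3 with it; 11% of all). With 1 probe set per gene and chip, by interquartile range or by mean signal, 16 member probe sets were tested and 1 was called in each of the last 2 comparisons. The shares of all probe sets called there were 0.586% and 0.841% by interquartile range, and 0.477% and 0.664% by mean signal. All the probe sets called in the reported fit were of Malat1 on 430A, of which this setting keeps 1. Leaving out each pool in turn gave 3 to 4 and 3 calls in them, and 0 between the Fabp2-null genotypes and between the sexes. Without Fabp2-/- female replicate 1, Malat1 1427285_s_at differed from WT by -0.36 (adjusted p = 0.101) in Fabp2-/- mice and was no longer called. Under a robust prior with an intensity trend, Malat1 1418189_s_at kept its difference of -0.78 there but had an adjusted p of 0.217 (0.0251 in the reported fit), and 1418188_a_at in Fabp2-/-;Fabp6-/- males kept -0.66 with an adjusted p of 0.271 (0.115), and the cause was not tested. The latter also missed a false discovery rate of 0.05. In Fabp2-/- mice, Malat1 1418188_a_at differed by -0.73 without female replicate 1 and by -1.13 without female replicate 2. The same replicate numbers did not pair the pools (r of deviations from -0.26 to 0.33 on 430A and -0.21 to 0.26 on 430B over 28 pairs of groups). With the replicate block, the counts were 0 between Fabp2-/-;Fabp6-/- and Fabp2-/- mice (0.649% of all probe sets) and 4 between Fabp2-/- and WT (0.434%). They were 3 between Fabp2-/-;Fabp6-/- and WT (0.634%) and 0 between the sexes (0.109%). In that setting Malat1 1418188_a_at passed the thresholds in Fabp2-/- females (-0.65, adjusted p = 0.187), as it did with adjustment over both chips (adjusted p = 0.155).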
